A study of Mus musculus with 40 samples.

Results

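Bulk RNA sequencing of the E15.5 mouse larynx, esophagus, and trachea was deposited in 2 tables of expected counts (ECs), and the libraries of one table were compared here with those of the other to ask which classes of RNA depended on the kind of library. The names of 6 libraries end in an index of 6 bases (index libraries), and the names of the other 6 end in a code of age, tissue letter, and number (short-code libraries). Members were chosen by these names, which gave 12 of the 40 libraries of the series, with 2 index and 2 short-code libraries for each tissue. All 12 are labelled E15.5, and the methods describe wild type FVB/N embryos with no treatment named. They give pools of 20 animals at this age, against 10 at the other embryonic ages. The genes of 2 of the 12 libraries went against their labels, as given below. The organ named vocal fold in the index libraries is named larynx in the short-code libraries, and larynx is used for both. A poly-A preparation is described for every library, and sequencing on HiSeq and NovaSeq instruments is named without saying which libraries went on each. The kind of library can therefore not be told apart from the table, the sequencing run, or any difference in preparation or counting. The labels do not say whether libraries of a tissue came from separate pools, so p-values measure only the spread between these libraries.

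Most messenger RNAs end in a poly-A tail, which a poly-A preparation captures by pairing with oligo-dT. Several abundant RNAs lack such a tail or carry only a short one. They include 7SL RNA, part of the signal recognition particle, the RNA subunits of the RNases MRP and P, the small nuclear RNAs (snRNAs) of the spliceosome, and the small nucleolar and Cajal body RNAs (snoRNAs and scaRNAs) that guide the modification of other RNAs. The replication-dependent histone mRNAs, which are made in S phase and supply the histones that package newly copied DNA, end in a conserved stem-loop in place of a tail. Replacement histones are made throughout the cell cycle from mRNAs with a tail. Mitochondria transcribe both strands of their genome into long precursors that are cut into ribosomal RNAs, transfer RNAs, and mRNAs, and most of the mRNAs receive a short tail.

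The index libraries were the deeper ones, with 25471557 to 35831490 ECs (median 30785492), against 14002503 to 22062957 ECs (median 15726236) in the short-code libraries. Protein-coding genes took 23138001 to 32958120 and 8608923 to 14198494 of these ECs. Genes detected numbered 23317 to 27247 in index and 22552 to 32174 in short-code libraries. In a model with tissue as a term, edgeR's quasi-likelihood test with Benjamini-Hochberg adjustment over 31192 genes called 2053 genes higher (6.58%) and 3970 lower (12.7%) in index libraries at an adjusted p under 0.05. All adjusted p-values for genes below come from this test, folds are log2 of index over short-code with a standard error (SE), and levels are normalized ECs. The median log2 fold change of all genes was -0.34, and that of protein-coding genes was -0.02. With TMM factors these medians were -0.21 and 0.12, and the share of calls that were higher was 44.9%, against 34.1% with the median-ratio factors used here and 53.1% when a gene needed 10 ECs in 6 libraries.

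The genes of 2 libraries went against their labels. In the library labelled index esophagus 2, Igf2, a fetal growth factor, stood at 16.75 CPM (ECs scaled to an equal protein-coding total), against 3889 to 8342 in the other 5 index libraries and 43.47 to 46.99 in the 2 libraries of the adult larynx. Its Dlk1, which marks fetal tissues, stood at 1.001 CPM, against 887.0 to 1456 in the other 5, while its Krt13, a keratin of stratified mucosa, stood at 39558, against 38.94 to 838.3. Over 14776 genes this library correlated at 0.863 to 0.872 with the adult larynx libraries and at 0.656 with index esophagus 1. The library labelled short-code trachea 1 held 0.8889 CPM of Epcam, a marker of epithelial cells, against 46.51 to 133.3 in the other 5 short-code libraries, 0.3333 CPM of the basal cell keratin Krt5, against 49.30 to 360.7, and 2507 CPM of Ucp1, the uncoupling protein of brown fat, against 15.61 to 768.5. It was therefore low in the epithelium that a trachea should hold.

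Further groups of genes set short-code libraries apart. The sum of 1379 listed olfactory receptor genes, in normalized ECs, was 2163 to 3647 in index libraries, and it was 19139 in short-code larynx 2 and 47390 in short-code trachea 2, against 4217 to 9842 in the other 4 short-code libraries. A list of 16 thymus and T cell genes summed to 10062 in short-code trachea 2, against 147.8 to 342.0 in the 6 index and 209.9 to 396.3 in the other 5 short-code libraries. Without index esophagus 2, 3928 genes were higher (12.7%) and 6179 lower (20.0%), and 5957 of the 6023 genes (19.3%) called with 12 libraries were called again with the same sign. Without both libraries that went against their labels, 3946 were higher (13.0%) and 6845 lower (22.6%). Counts of called members without index esophagus 2 are given below for the lists where they moved most. They stand beside 12.7% higher and 20.0% lower over all genes, and counts with 12 libraries beside 6.58% and 12.7%.

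Replication-dependent histone mRNAs were low in index libraries and replacement histone mRNAs were high. Of 65 replication-dependent histone genes tested, 55 were lower and none was higher, where 12.7% of all genes were lower, and their median log2 fold change was -6.49, or -6.40 with the 5 genes at 0 in every index library set to their bound. Of 11 replacement histone genes, 9 were higher and none was lower, where 6.58% of all genes were higher, with a median of 0.88. Without index esophagus 2 these counts were 58 lower and 10 higher. The replication-dependent histones took 0.006413 to 0.01890% of ECs (median 0.007652%) in index libraries and 0.05821 to 0.1494% (median 0.08415%) in short-code libraries, an 11.0-fold difference of medians with no overlap. Over all genes tested, 4.92% were higher and 7.52% lower in index libraries with no overlap between the kinds. An exact permutation test with kind permuted within tissue gave the smallest p that its 216 arrangements allow, 0.00926, and 0.0167 after adjustment over 18 classes. The replacement histones took 0.1208 to 0.2931% in index and 0.06068 to 0.1302% in short-code libraries (exact permutation test, adjusted p = 0.0278), with index esophagus 2 as the only index library inside the short-code range.

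The ends of these transcripts were read from GRCm39 with the GENCODE vM39 models, after the values were seen, to set histone genes of different fold side by side. The next 5 sequences are 30 bases around the stem-loop letters, which are capitalized, in 4 genes nearly absent from index libraries and in H2bc4, which fell least among the called genes of this kind. They lie after the stop codon at chr13:23948368-23948397 on the + strand (H1f1), chr13:23936796-23936825 on + (H3c2), chr13:23931179-23931208 on + (H2bc3), chr13:23735458-23735487 on - (H4c6), and chr13:23868623-23868652 on + (H2bc4).
H1f1: acccaacGGCTCTTTTCAGAGCCaccaaca
H3c2: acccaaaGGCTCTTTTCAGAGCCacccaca
H2bc3: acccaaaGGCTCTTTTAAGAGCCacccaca
H4c6: tctcaaaGGCCCTTTTCAGGGCCacccact
H2bc4: ttccaaaGGCTCTTTTCAGAGCCacccact
Another 5 histone transcripts were chosen because their genes rose or fell less than the median of -6.49 of replication-dependent histones. Of these, H1f2 (-1.88) and H2bc27 (-0.65) hold the stem-loop as well. Genes with a signal that fell far, such as H4c1 (-8.75), are not shown. The last 30 bases of the 5 annotated transcripts hold a poly-A signal (AATAAA, capitalized). They lie at chr13:23924321-23924350 on + (H1f2), chr3:96131025-96131054 on + (H2bc21), chr11:58840330-58840359 on + (H2bc27), chr6:87957403-87957432 on - (H1f10), and chr15:78914675-78914704 on + (H1f0).
H1f2: ttctAATAAAaagcgtttagttttcattca
H2bc21: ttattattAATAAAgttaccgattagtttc
H2bc27: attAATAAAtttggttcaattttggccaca
H1f10: ctggggcgcAATAAAcggttccaaccttga
H1f0: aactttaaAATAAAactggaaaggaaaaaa

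Among genes with the stem-loop, H1f1, a linker histone, had 1.706 to 7.258 normalized ECs in the index libraries (median 4.260), against 1377 to 3524 in the short-code libraries (median 2224), and its log2 fold change was -8.95 (SE 0.396, adjusted p = 4.95e-07). H3c2, which encodes histone H3, had 0 to 1.187 in index and 252.5 to 522.2 in short-code libraries (-9.38, SE 0.634, adjusted p = 5.68e-06). H2bc3, which encodes histone H2B, had 0 to 2.277 and 425.8 to 1116 (-8.97, adjusted p = 9.74e-07), and H4c6, which encodes histone H4, had 0 to 1.780 and 306.0 to 734.2 (-8.75, adjusted p = 2.04e-06). All 4 were near 0 in every index library of every tissue, the library labelled index esophagus 2 included. H2bc4 reached 201.8 to 1527 in index libraries, against 695.0 to 1152 in short-code libraries, and its fold was -1.35 (SE 0.4005, adjusted p = 0.0351), or -1.85 without index esophagus 2, which held its highest value. This call was lost under 9 of 20 alternatives.

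H1f2, whose transcript holds both the stem-loop and a signal, had 279.2 to 2960 in index and 1648 to 2519 in short-code libraries (-1.88, SE 0.507, adjusted p = 0.0235), a call lost under 5 of 20 alternatives. H2bc21, with a signal and no stem-loop letters, had 79.18 to 151.4 in index and 80.21 to 154.8 in short-code libraries (-0.03, SE 0.266, adjusted p = 0.942), so that both kinds covered nearly the same range. H2az1, the replacement H2A.Z, had 4314 to 5392 in index and 1779 to 3020 in short-code libraries (1.06, SE 0.169, adjusted p = 0.00144) and did not overlap. H1f10, a replacement linker histone, had 45.20 to 315.5 and 5.203 to 26.83 (3.21, SE 0.567, adjusted p = 0.00260).

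The search for the stem-loop used the letters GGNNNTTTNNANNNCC on the transcript strand within 120 bases after the stop codon, which 103 of 21522 protein-coding genes (0.479%) held. The signal was AATAAA or ATTAAA in the last 50 bases of the annotated transcript, which 15278 (70.99%) held. A gene without these letters can still carry another form of either element or a longer transcript. Of 46 replication-dependent genes with the stem-loop and no signal, 42 were lower, with a median of -6.84 (-6.65 with 4 genes at their bound). Of 12 with both, 9 were lower, with a median of -3.39. Of 5 with a signal alone, 3 were lower, and they included H4c1 (-8.75), so that a signal in the annotated transcript did not go with a small fold in every gene. Of 2 with neither, H3c8 was lower and H2ac22 was not called. The genes that were not called were H2ac13, H2ac23, H2ac6, and H4c17 with the stem-loop alone, H2ac25, H2bc27, and H3c14 with both, and H2bc21 and H2bc24 with the signal alone. Without index esophagus 2, H2ac13, H2ac22, and H2ac25 were also lower, and the replacement gene H3f3a was also higher. Among the replacement histones, H2ax held both elements and was higher at 1.25. The clustered histone genes are near-identical, and reads are shared among them by the counting, so the value of a single gene is an estimate.

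**Figure D1:**
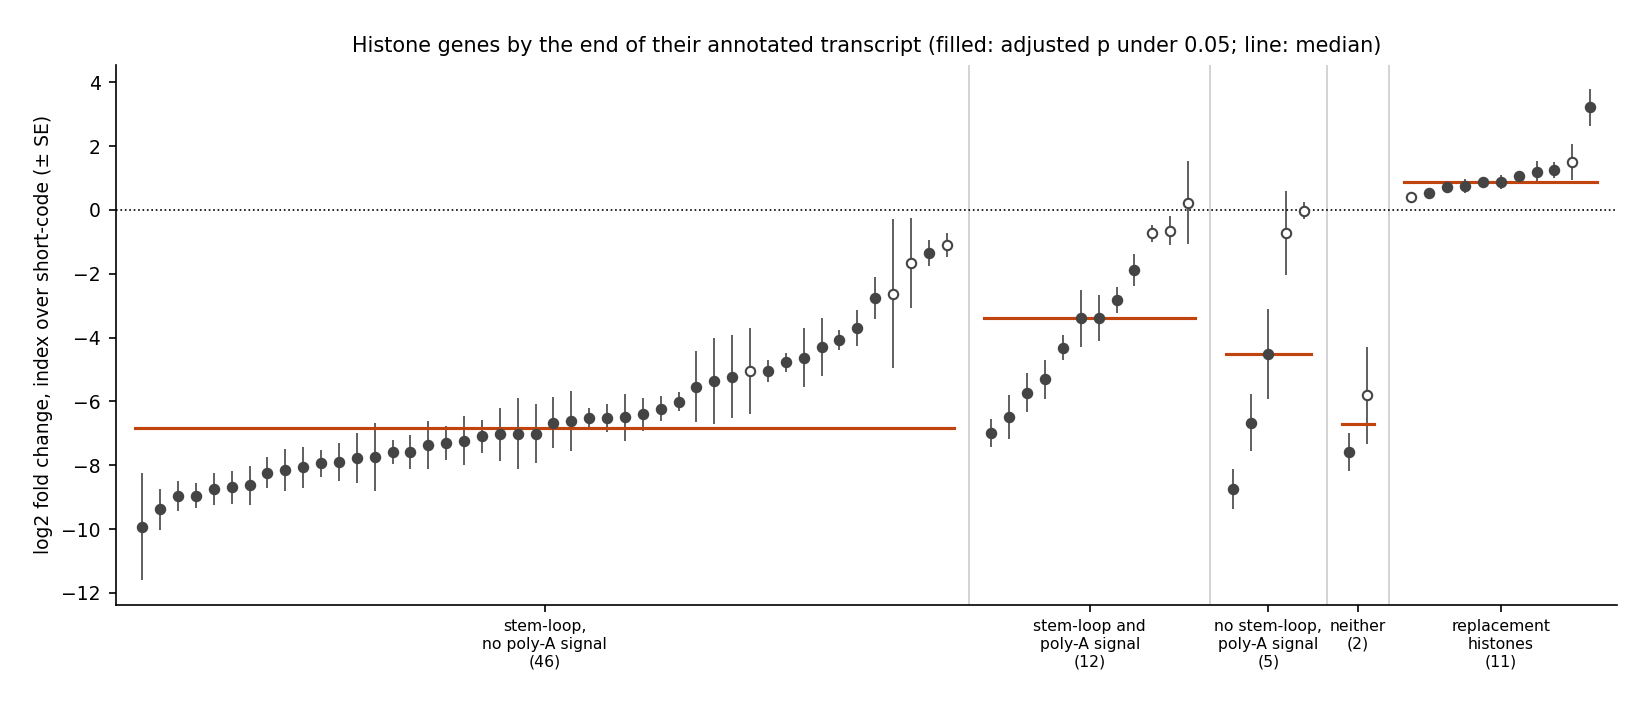
Log2 fold change of index over short-code libraries with its SE (y axis) for 76 histone genes, grouped by the letters at the end of the annotated transcript, with the number of genes in parentheses and a line at each group's median. Filled points had an adjusted p under 0.05. The 46 genes with a stem-loop alone have a median of -6.84, and the 11 replacement histones have a median of 0.88.

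The ribosomal RNAs of the mitochondrion and the RNAs of RNA polymerase III made up much of the short-code libraries and almost none of the index libraries. Mitochondrial rRNA took 0.04997 to 0.07051% of ECs in index libraries (median 0.06396%) and 19.29 to 32.19% in short-code libraries (median 24.62%), and the RNAs of RNA polymerase III and ribonucleoproteins took 0.0003385 to 0.001684% and 4.058 to 6.988%. Both differences had the smallest p of the exact permutation test (adjusted p = 0.0167). Protein-coding genes outside the mitochondrial genome thereby held 90.84 to 91.98% of ECs in index and 57.37 to 67.06% in short-code libraries. Depth for mRNA was thus less equal between the kinds than total ECs.

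mt-Rnr2, the large rRNA of the mitochondrial ribosome (chrM:1094-2675), had 5091 to 12961 normalized ECs in index libraries (median 6439) and 4344196 to 9147632 in short-code libraries (median 5657274), with a log2 fold change of -9.75 (SE 0.451, adjusted p = 4.95e-07). mt-Rnr1, the small rRNA (chrM:70-1024), had 2985 to 8584 and 437460 to 1172392 (-7.31, SE 0.453, adjusted p = 2.85e-06). Index esophagus 2 was the highest index library for both and still lay far under every short-code library. Its normalized protein-coding ECs summed to 28626525, against 14065823 to 15909804 in the other 5 index libraries. By share of ECs its mitochondrial rRNA, at 0.07051%, was close to the 0.06870% of index trachea 1. The 22 mitochondrial tRNAs had no EC in any of the 12 libraries, so nothing could be compared for them.

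Rn7s1 and Rn7s2, neighbouring copies of 7SL RNA on chromosome 12, had identical values in every library, as equal sharing of reads gives, and were summed. The sum was 43.38 to 341.1 in index libraries (median 186.8) and 1012887 to 2019632 in short-code libraries (median 1362343), a 7606-fold difference of means. Each copy had a log2 fold change of -12.91 (SE 0.636, adjusted p = 4.95e-07). Rmrp, the RNA of RNase MRP, had 1.886 to 11.39 in index and 3444 to 28069 in short-code libraries (-10.88, SE 0.645, adjusted p = 2.14e-06) at its ribozyme entry, while its overlapping lncRNA entry had no EC in index libraries and 532.4 to 5308 in short-code libraries, at least 1321-fold lower by a floor of 3 ECs per library. Rprl3, a gene of the RNase P RNA family, had 0.9108 to 8.307 and 5947 to 23427 (-12.12, SE 0.671), and Rpph1, the RNA of RNase P, had 1.366 to 11.09 and 1413 to 5217 (-9.46, SE 0.620). Of 11 such genes tested, 9 were lower and none was higher, and Rprl2 and one of the 2 entries of Rprl1, with no EC in any index library and at most 3.876 in short-code libraries, were not called.

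Among the small nuclear and nucleolar RNAs, every call was of a gene lower in index libraries. Most could not be compared, since 1353 of 1422 snoRNA and scaRNA genes and 1134 of 1172 snRNA genes had no EC in any of the 12 libraries, and 18 of the 26 snoRNAs and scaRNAs tested were at least 200 bases long. Among these 26, 18 were lower in index libraries and none was higher (median -6.45, or -6.37 with genes at 0 in a kind set to their bound). As a class they took 0.0001734 to 0.0003387% of ECs in index and 0.03264 to 0.05878% in short-code libraries (exact permutation test, adjusted p = 0.0167). Scarna10, a Cajal body RNA, had 0 to 1.979 normalized ECs in index and 5305 to 8291 in short-code libraries (-12.64, SE 0.619, adjusted p = 4.95e-07). Snord17 had 0 to 4.747 and 383.1 to 986.5 (-8.58, SE 0.721, adjusted p = 3.02e-05), and Snora73a had 0.4554 to 6.823 and 541.1 to 976.4 (-8.18, SE 0.532, adjusted p = 4.01e-06). No index library overlapped a short-code library in any of these. The snRNAs took 0.00004997 to 0.0002510% in index and 0.001442 to 0.004056% in short-code libraries (adjusted p = 0.0167 by the exact permutation test), and 9 of 17 were lower, all 17 of them shorter than 200 bases. Of the rest, 7 had no EC in short-code libraries, among them Rnu1a1, a gene of U1 RNA, and 5 entries with values identical to it, at 0.4554 to 5.028 in index libraries (adjusted p = 0.0631). These 6 were above every short-code library, opposite to the genes called.

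The host genes that carry snoRNAs in their introns moved the other way. They are spliced, and the spliced exons carry a tail. Of 18 host genes tested, 9 were higher in index libraries and none was lower (median 0.70), and their share was 0.03924 to 0.05535% in index and 0.01314 to 0.02576% in short-code libraries, with no overlap (exact permutation test, adjusted p = 0.0167). Snhg3, the host of Snora73a, had 118.8 to 217.1 normalized ECs in index and 22.12 to 58.96 in short-code libraries (2.09, SE 0.325, adjusted p = 0.00118). Gas5, which hosts many box C/D snoRNAs, had 2061 to 3764 and 1117 to 1860 (0.90, SE 0.1798, adjusted p = 0.00527), and Snhg1 had 816.2 to 1733 and 324.4 to 667.6 (1.11, SE 0.202, adjusted p = 0.00301). Snora73a and its host thus stood on opposite sides between the kinds. Snhg14, the long host of a snoRNA cluster, had 31.55 to 265.1 and 196.4 to 3891 (-2.35, SE 0.801) and was not called (adjusted p = 0.0628).

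**Figure D2:**
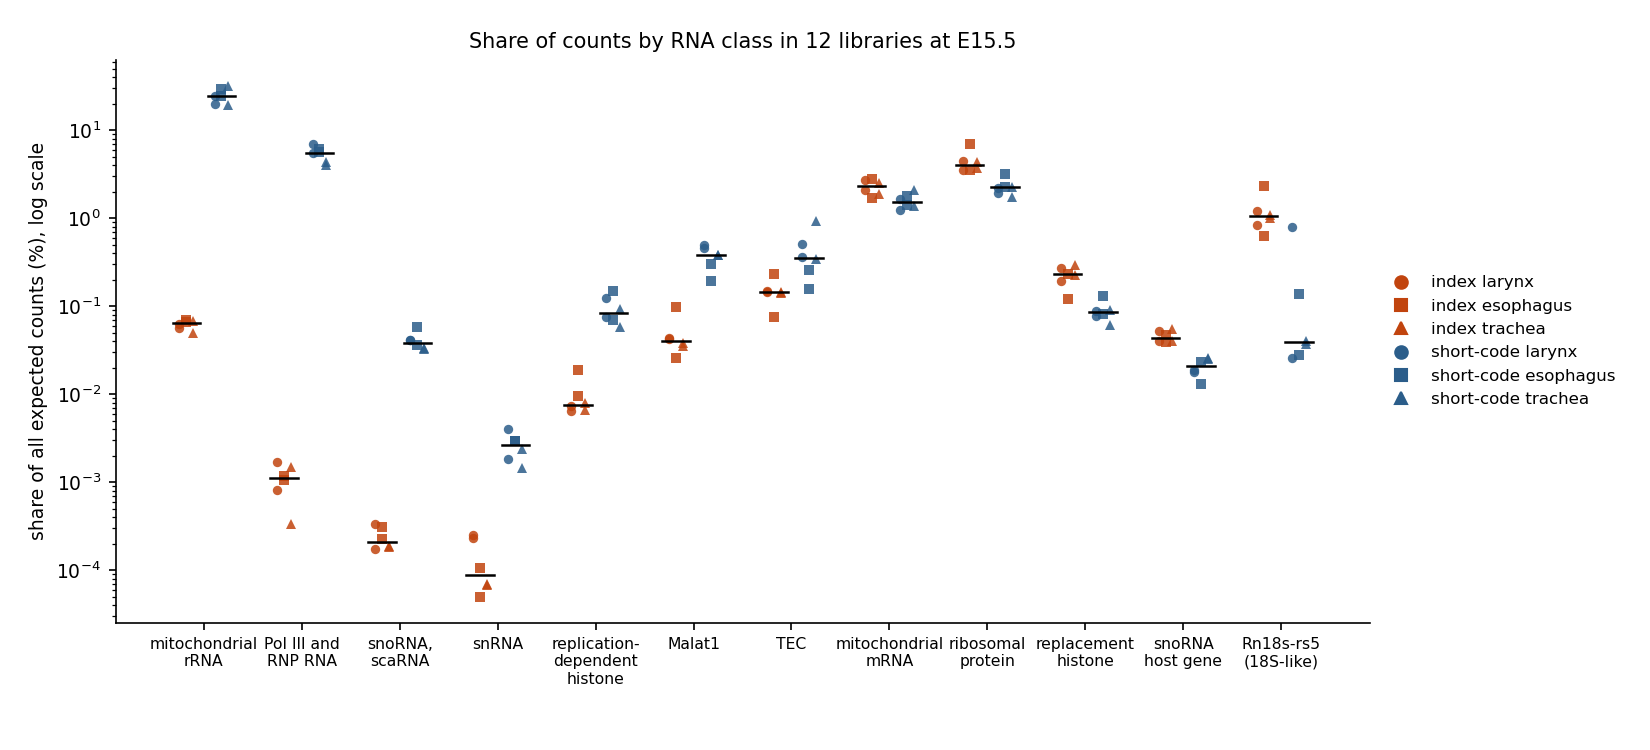
Share of all ECs in percent (y axis, log scale) held by 12 classes of RNA in each of the 12 libraries, with index libraries left of short-code libraries in each class, symbols for the tissue, and a line at the median of 6 libraries. Mitochondrial rRNA has medians of 0.06396% in index and 24.62% in short-code libraries, while ribosomal protein mRNAs have medians of 4.064% and 2.242%.

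The median of the nuclear long noncoding RNAs moved little, and the ones with the largest change fell. Malat1, an abundant RNA of nuclear speckles whose end is a triple helix in place of a tail, had 5749 to 14692 normalized ECs in index libraries (median 7160) and 64507 to 136733 in short-code libraries (median 103293), with a log2 fold change of -3.62 (SE 0.322, adjusted p = 4.11e-05). Kcnq1ot1, an imprinted antisense RNA, had 235.4 to 1213 and 4209 to 12970 (-3.60, SE 0.406, adjusted p = 0.000196). Neither overlapped. Of 19 nuclear lncRNAs tested, 4 were lower (21.05%) and 1, Firre, was higher (5.263%), where 12.7% and 6.58% of all genes were. Firre rose by 0.85 (adjusted p = 0.0376). The median of the 19 was -0.16, nearer to 0 than the -0.34 of all genes. Norad, a cytoplasmic lncRNA on the list, had 5021 to 7174 in index and 5990 to 6692 in short-code libraries (-0.00, SE 0.145). Neat1, the scaffold of paraspeckles, has a short form with a tail and a long form without. It had 1167 to 19729 and 2827 to 8933 (-1.14, SE 0.825, adjusted p = 0.335), and its highest value was that of index esophagus 2.

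The mitochondrial mRNAs split by gene. Among 13, 4 were higher, 2 were lower, and 7 were not called, with a median of 0.53. Without index esophagus 2, 6 were higher and 3 lower, with mt-Nd5 (1.18) and mt-Nd4l (1.66) added to the first and mt-Co1 (-0.73) to the second. mt-Nd6, the only mRNA of the light strand and one reported to lack a tail in human mitochondria, had 5805 to 20186 normalized ECs in index libraries (median 9845) and 783.5 to 1823 in short-code libraries (median 1221), with a log2 fold change of 3.04 (SE 0.368, adjusted p = 0.000285). mt-Nd4 had 41440 to 68269 and 10466 to 29754 (1.62, SE 0.267, adjusted p = 0.00170), mt-Nd2 was higher at 1.54, and mt-Atp8 at 1.75. These 4 did not overlap between kinds, and mt-Nd6 lies opposite other transcribed genes, so without known strand its reads and those of the other strand cannot be told apart.

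The 2 lower genes were mt-Co3 and mt-Atp6. mt-Co3, a subunit of cytochrome oxidase, had 2137 to 16788 in index and 9338 to 30640 in short-code libraries (-1.96, SE 0.455, adjusted p = 0.0113), and mt-Atp6, of the ATP synthase, had 2093 to 25979 and 11562 to 37825 (-1.86, SE 0.479, adjusted p = 0.0191, lost under 4 of 20 alternatives). The highest index values of both were those of index esophagus 2. Near-identical copies of these genes lie on chromosome 1, and reads are shared with them. Atp6-ps had 21873 to 82868 in index and 4422 to 18614 in short-code libraries (1.82, SE 0.456, adjusted p = 0.0165), opposite in direction to mt-Atp6. The 13 mRNAs with 5 copies took 2.862 to 4.259% of protein-coding ECs in index and 2.794 to 5.358% in short-code libraries, nearly the same range. Of all ECs, the 13 took 1.699 to 2.768% and 1.235 to 2.090% (exact permutation test, adjusted p = 0.0417), a difference that turned to -0.1081 percentage points when protein-coding ECs were the denominator.

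Among 84 nuclear genes of oxidative phosphorylation tested, 20 were lower and 1, Atp5if1, was higher, with a median of -0.95, and without index esophagus 2, 75 were lower, with a median of -1.43. Their share of all ECs, 0.7150 to 1.810% in index and 1.008 to 1.860% in short-code libraries, overlapped (exact permutation test, adjusted p = 0.1765), the median in the esophagus was -0.05, and leaving out a library gave 4 to 75 lower genes. Ndufs1, a subunit of complex I, had 1627 to 3664 normalized ECs in index and 4100 to 9587 in short-code libraries (-1.33, SE 0.275, adjusted p = 0.00626), with no overlap. Cox4i1, a subunit of cytochrome oxidase, had 2864 to 16234 and 8107 to 18581 (-1.38, SE 0.432, adjusted p = 0.0434). Of 78 mitochondrial ribosomal protein genes, 1 was higher and 1 lower, and without index esophagus 2 these counts were 2 and 32. Of 82 cytosolic ribosomal protein genes, 12 were higher and 1 lower, with a median of 0.48, and without index esophagus 2 these were 15 and 7, with a median of 0.10. Leaving out a library gave 7 to 32 higher. Over all genes, 6.58% were higher and 12.7% lower, or 12.7% and 20.0% without index esophagus 2. Ribosomal protein genes have many pseudogene copies, so their counts depend on how shared reads were divided.

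Such copies carried some of the largest rises. Rpl15-ps3, a processed pseudogene of the ribosomal protein gene Rpl15, had 4105 to 10364 normalized ECs in index libraries and none in any short-code library, at least 1104-fold higher by the floor of 3 ECs per library. Its parent Rpl15 had 5481 to 13877 in index and 9357 to 14715 in short-code libraries, and the sum of both was 9586 to 24241 and 9357 to 14715. The sums overlapped, and the copy held 37.90 to 42.82% of its sum in index libraries. Likewise Rpl10a-ps1 had 4454 to 17184 and 0 to 13.87, with a sum with Rpl10a of 7971 to 30082 in index and 6336 to 11423 in short-code libraries. Rps6-ps4 (at least 364.9-fold higher), Gm12918 (at least 600.6-fold), Gm9843 (at least 269.9-fold), and Gm10288 (at least 211.1-fold) also had no EC in short-code libraries, and without index esophagus 2 these limits were 154.1, 371.0, 174.0, and 247.5. These pairs were set side by side after their values were seen. As a class, processed pseudogenes took 1.316 to 1.545% of ECs in index and 0.6584 to 1.578% in short-code libraries (exact permutation test, adjusted p = 0.0333), and the difference was not past the threshold as a share of protein-coding ECs (adjusted p = 0.689).

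For weakly expressed loci, many of which entered the test through short-code libraries alone, counts of calls are a description. Loci of the annotation type TEC, mostly single-exon transcripts, took 0.07613 to 0.2326% of ECs in index and 0.1558 to 0.9374% in short-code libraries (exact permutation test, adjusted p = 0.0278). Of 2682 tested, 1279 were called lower and 4 higher, and 433 had no EC in any index library, so that these could only come out lower. The share of lncRNAs, 0.7088 to 2.734% in index and 1.749 to 2.917% in short-code libraries, overlapped (exact permutation test, adjusted p = 0.574), and 13.58% of those tested were lower, near the 12.7% of all genes. The olfactory receptors, genes of sensory neurons of the nose, took 0.008729 to 0.02431% in index and 0.01258 to 0.1877% in short-code libraries (exact permutation test, adjusted p = 0.0333), with the highest values in short-code trachea 2 and larynx 2. Of 712 tested, 73 were lower, 10.25% against 12.7% of all genes, and 418 had no EC in any index library.

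An 18S-like locus and Lars2 varied widely within each kind. Rn18s-rs5 (chr17:40157244-40159092), a copy of 18S rRNA, had 95012 to 709709 normalized ECs in index libraries (median 175146) and 6620 to 214844 in short-code libraries (median 10654), with a log2 fold change of 2.97 (SE 1.02) that was not called (adjusted p = 0.0637). As a share of ECs it was 0.6333 to 2.323% and 0.02599 to 0.7917% (exact permutation test, adjusted p = 0.0167), and the only short-code library within the index range was larynx 2. Lars2, the mitochondrial leucyl-tRNA synthetase, had 16408 to 95329 and 1089 to 62362 (2.56, SE 0.994, adjusted p = 0.0934).

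Transcripts over 8 kb were low in index libraries. Over 15699 protein-coding genes with a mean of at least 10 normalized ECs, the median log2 fold change was 0.18 for transcripts under 1 kb, 0.33 for 1 to 2 kb, 0.21 for 2 to 4 kb, -0.01 for 4 to 8 kb, and -0.48 over 8 kb, against 0.10 for all of them. Of the 1123 genes over 8 kb, 2.404% were higher and 23.42% lower, where 11.83 and 7.746% of the 15699 were. Without index esophagus 2 the medians were -0.16, 0.09, 0.13, 0.04, and -0.36 in the same order, so the value under 1 kb changed sign while the longest class stayed lowest. Within each of 5 groups of equal size by GC content the longest class was also the lowest, at -0.64 in the group of lowest GC and -0.16 in that of highest GC. Genes that span over 100 kb of the genome had a median of -0.28. Genes are not independent replicates, and no test was made over them.

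In each library, the share of protein-coding ECs from transcripts over 8 kb was 3.822 to 11.32% in index (median 10.30%) and 13.66 to 18.87% in short-code libraries (median 16.70%), with no overlap. Without Ttn and Neb it was 3.672 to 11.11% and 10.68 to 13.83%, which overlapped. The lowest index value in both was that of index esophagus 2. The share from transcripts of 4 to 8 kb was 19.68 to 37.14% in index (median 36.37%) and 30.87 to 34.23% in short-code libraries (median 33.82%). Its lowest index value was also that of index esophagus 2. The share from 2 to 4 kb was 32.47 to 34.45% in index and 27.13 to 29.64% in short-code libraries, with no overlap. Ahnak, a giant scaffold protein whose transcript measures 18437 bases, had 8291 to 36143 normalized ECs in index and 50193 to 75436 in short-code libraries (-2.44, SE 0.337, adjusted p = 0.000587). Dmd, which encodes dystrophin (14945 bases), had 544.1 to 1427 and 3507 to 9472 (-2.87, SE 0.292, adjusted p = 0.000104). Neither overlapped between kinds in any tissue.

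Genes of contractile muscle held the largest of these falls. Ttn, which encodes titin and has the longest transcript tested in the list (107543 bases), had 2600 to 46978 normalized ECs in index libraries (median 18771) and 239531 to 926379 in short-code libraries (median 753395), with a log2 fold change of -5.22 (SE 0.607, adjusted p = 0.000225). Neb, which encodes nebulin (23381 bases), had 1093 to 15044 and 39019 to 129664 (-3.64, SE 0.508, adjusted p = 0.000622). Of 30 skeletal muscle genes tested, 7 were lower and none was higher, with a median of -1.57, and without index esophagus 2, 20 were lower. Over all genes, 12.7% were lower, or 20.0% without that library. Ryr1, the calcium release channel (15358 bases), was lower at -1.94 (SE 0.481, adjusted p = 0.0157), as was Myl1, a myosin light chain of 1182 bases, at -1.91 (SE 0.523, adjusted p = 0.0248). Acta1, skeletal actin of 1648 bases, had 4526 to 313843 and 88307 to 461818 (-2.36, SE 0.804, adjusted p = 0.0605) with 12 libraries, and -3.27 (adjusted p = 0.00363) without index esophagus 2.

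Among regulators of muscle precursors, Myod1, Myog, and Pax7 did not share these falls. Other regulators on the list, among them Myf5 and Pax3, are not described here. Myod1, the factor that commits cells to muscle, had 95.26 to 586.1 in index and 170.6 to 474.9 in short-code libraries (0.29, SE 0.396, adjusted p = 0.628). Myog had 408.5 to 4272 and 816.6 to 2466 (0.13, SE 0.459), and Pax7, of muscle stem cells, had 67.37 to 396.2 and 103.2 to 239.0 (0.01, SE 0.395). All 3 ranges overlapped. In bulk tissue, fewer cells of a type and less RNA per cell cannot be told apart, and transcript length and muscle content were not separated for Ttn and Neb.

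**Figure D3:**
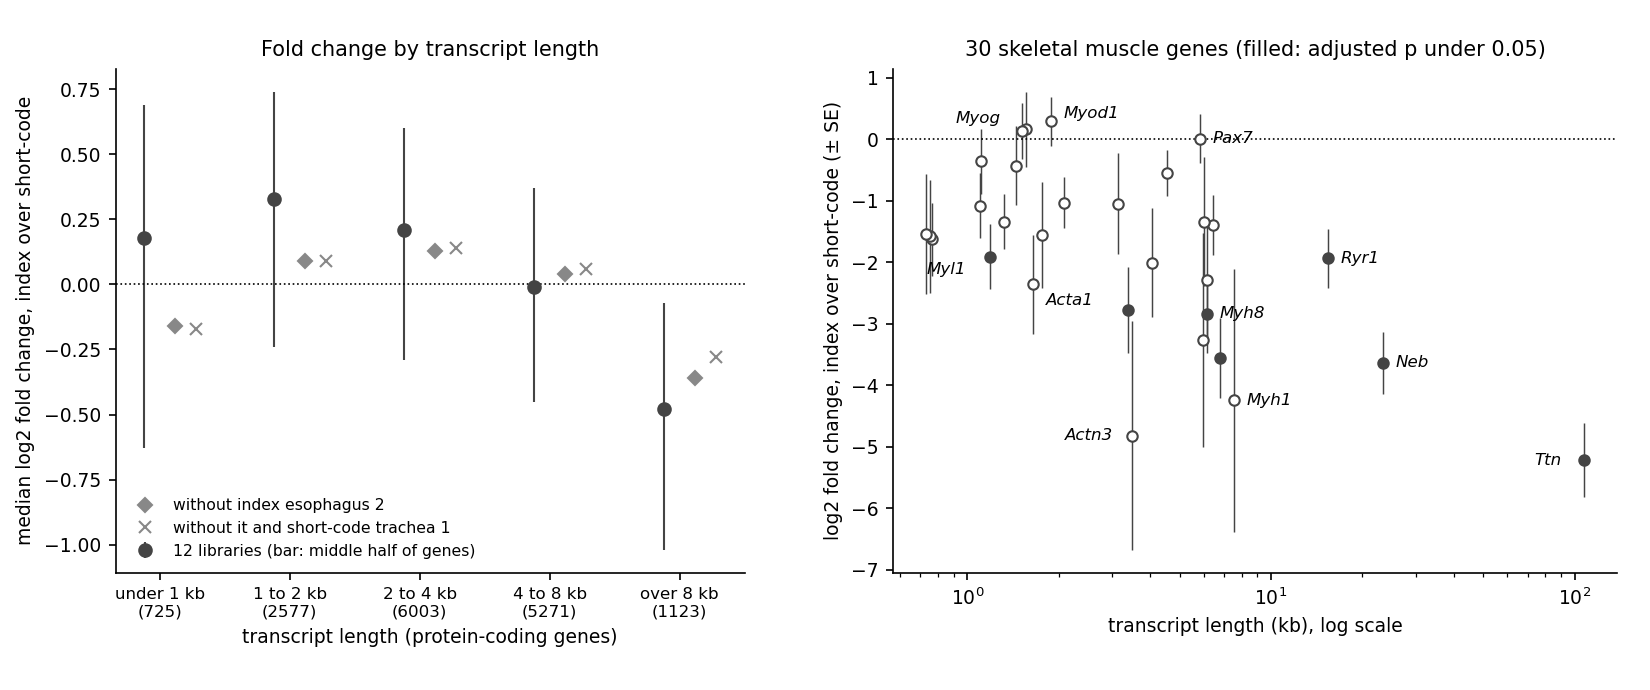
Left, median log2 fold change of index over short-code libraries (y axis) for 15699 protein-coding genes in 5 classes of transcript length, with 12 libraries (circles, bar over the interquartile range of genes), without index esophagus 2 (diamonds), and without it and short-code trachea 1 (crosses). Right, log2 fold change with SE of 30 skeletal muscle genes against transcript length (log scale), where Ttn lies at -5.22 and Myod1 at 0.29.

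Markers of other tissues differed as well, where 12.7% of all genes were lower, or 20.0% without index esophagus 2. Of 12 genes of brown and white fat, 9 were lower and none was higher (median -4.68), and 11 were lower without index esophagus 2. Ucp1 had 0 to 110.9 normalized ECs in index libraries (median 0.5576) and 270.1 to 41585 in short-code libraries (median 6401), with a log2 fold change of -11.33 (SE 2.41, adjusted p = 0.00851), and Adipoq, a hormone of fat cells, had 0 to 153.5 and 219.4 to 5768 (-8.70, SE 1.79, adjusted p = 0.00721). The highest index values of both were those of index esophagus 2 and the highest short-code values those of short-code trachea 1, and without these libraries the fold of Ucp1 was -12.74. Pparg, the regulator of fat cell differentiation, had 31.42 to 96.12 and 196.4 to 2234 (-3.55, SE 0.471, adjusted p = 0.000472). Of 19 hepatocyte genes, 13 were lower (median -4.01), among them Alb, serum albumin, with 0 to 19.13 in index and 14.73 to 2334 in short-code libraries (-5.26, adjusted p = 0.0114). Of 13 bone genes, 4 were lower, Mmp13, Ibsp, Spp1, and Dmp1, and Spp1 had 17.91 to 72.91 and 126.4 to 16839 (-5.79, SE 0.893, adjusted p = 0.00137). Of 16 thymus and T cell genes, 6 were lower, and the highest value of each was that of short-code trachea 2. Of 14 endothelial genes, 5 were lower, with Vwf at -1.91 (SE 0.378, adjusted p = 0.00493).

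Calls among genes of dividing cells and of regional identity were on the other side. Of 22 proliferation genes, 6 were higher and none was lower (median 0.73), and 18 were higher without index esophagus 2. Over all genes, 6.58% were higher, or 12.7% without that library. Birc5, which acts at cell division, had 509.2 to 849.3 normalized ECs in index and 189.9 to 416.2 in short-code libraries (1.25, adjusted p = 0.00261), while Mki67, with a transcript of 10270 bases, had 1212 to 5471 and 2909 to 6831 (-0.20, SE 0.296, adjusted p = 0.662). Of 24 regional regulators, 8 were higher and none was lower (median 1.13), and without index esophagus 2, 12 were higher and 1, Hoxc6, was lower (-4.65). Leaving out a library gave 3 (without short-code trachea 2) to 12 higher. The 8 were Nkx2-1, which specifies the respiratory lineage (3.93, SE 0.952, adjusted p = 0.0139), Foxf1, a mesenchymal factor of the foregut (2.19, SE 0.639, adjusted p = 0.0334), Nkx6-1 (2.16), Sox2, of the esophagus and airway (1.66), Tbx2 (adjusted p = 0.00634), Tbx3 (1.14), Sox9, of cartilage and airway (1.13), and Isl1 (0.99). Nkx2-1 had 785.6 and 902.5 in index trachea libraries, against 0 and 22.54 in short-code trachea libraries, of which 0 was the library with little epithelium. In the larynx it had 151.1 and 186.7 in index and 34.38 and 42.64 in short-code libraries. Without both libraries that went against their labels its fold was 3.14 (adjusted p = 0.00366), while the call of Sox2 was lost (1.27, adjusted p = 0.0596). A list of 12 thyroid follicle genes had a median log2 fold change of 3.4 in the trachea, with 3 called higher within that tissue. There, 1.34% of all genes were called higher, and the short-code libraries included the one with little epithelium. Its median was 1.88 in the esophagus and -0.15 in the larynx. Over all tissues its median was 1.74, with 1 gene called higher and none lower. Its summed levels were 419.0 to 163258 in index and 254.4 to 70747 in short-code libraries. Whether thyroid tissue contributed to the fold of Nkx2-1 was not tested. Of 22 fibroblast and matrix genes, 2 were higher, with a median of 0.01 that was -0.06 with factors from protein-coding genes.

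Each library was also placed along development by genes that change with age. Protein-coding genes were taken whose mean differed by at least 2 on the log2 scale between the 6 short-code libraries at E13.5 and the 6 at E18.5, with no overlap and a mean of at least 10 CPM at one age, a choice made after values were seen. The scale ran from 0, the E13.5 mean, to 1, the E18.5 mean. For 561 genes higher at E18.5, the median place was 0.25 to 0.86 in index libraries (median 0.58) and 0.68 to 1.04 in short-code libraries (median 0.94), and the kinds overlapped, with index larynx 1 at 0.76 and esophagus 2 at 0.86 above short-code trachea 1 at 0.68. For 349 genes higher at E13.5, it was 0.44 to 0.61 in index libraries other than esophagus 2, which stood at 1.45, and 0.72 to 1.0 in short-code libraries. Hbb-y, an embryonic globin, stood at 5.505 to 26.85 CPM in those 5 index libraries and 0.6621 to 3.437 in short-code libraries, with 1105 to 2322 at E13.5 and 0.2016 to 1.924 at E18.5. The scale was built from short-code libraries alone, so for index libraries place and kind cannot be told apart. Short-code libraries share its kind. For the genes higher at E18.5, short-code larynx 1, larynx 2, and esophagus 1 stood at 1.02, 1.0, and 1.04, the E18.5 level. Short-code larynx 1 correlated at 0.959 to 0.982 with libraries at E18.5 and at 0.785 to 0.832 with those at E13.5. Whether a difference in stage contributed to the folds was not tested.

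**Figure D4:**
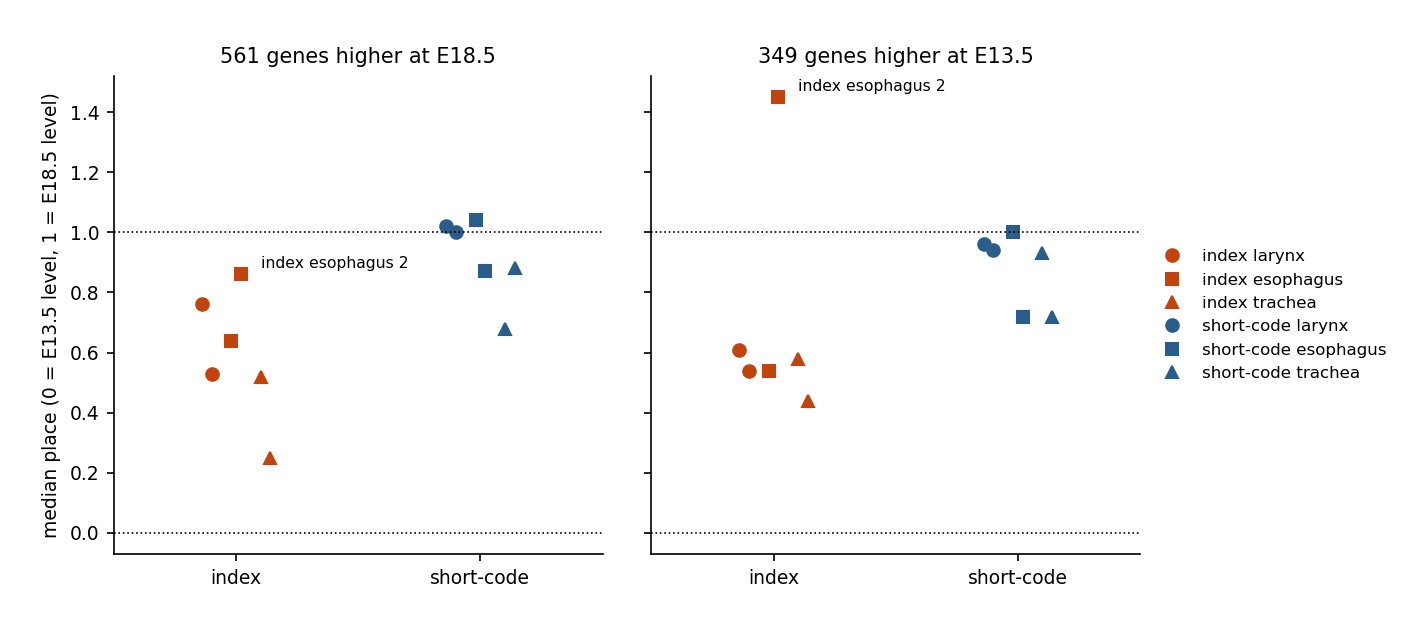
Median place of each E15.5 library between the E13.5 level (0) and the E18.5 level (1) of short-code libraries (y axis), for 561 genes higher at E18.5 (left) and 349 genes higher at E13.5 (right), with symbols for the tissue. Without index esophagus 2, index libraries lie at 0.25 to 0.76 on the left and 0.44 to 0.61 on the right, and short-code libraries at 0.68 to 1.04 and 0.72 to 1.0.

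Within single tissues, with 2 libraries of each kind, 100 genes were higher (0.321%) and 660 lower (2.12%) in the larynx, 76 higher (0.244%) and 145 lower (0.465%) in the esophagus, and 417 higher (1.34%) and 1613 lower (5.17%) in the trachea. Some of the large folds were alike in every tissue. Rn7s1 had -13.00 in the larynx, -12.72 in the esophagus, and -13.02 in the trachea, H1f1 had -8.36, -9.38, and -9.14, and Anp32b had 3.38, 3.67, and 3.35 in the same order. By edgeR's test within each tissue, Ucp1 had -13.89 in the larynx (adjusted p = 0.0941), -6.87 in the esophagus (adjusted p = 0.2495), and -15.04 in the trachea (adjusted p = 0.04397). Its folds were not called as different between tissues (edgeR's test of the difference, adjusted p = 0.8681). In index esophagus 2 it had 110.9 normalized ECs, against 0 to 0.9431 in the other 5 index libraries. Nmu, with the highest rise of a protein-coding gene over all tissues (7.15), was called in no single tissue. No gene had a fold that differed between tissues at an adjusted p under 0.05 in edgeR's test, where 1721 genes (5.52%) had an unadjusted p under 0.05 and DESeq2 called 114. Without both libraries that went against their labels, edgeR called 395 such genes.

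The 10 protein-coding genes with the highest rises, a mean of at least 50, and no overlap were Nmu, Tpm3-rs7, Six2, Anp32b, Mospd3, H1f10, mt-Nd6, Hmgn5, Taf15, and Tfap2a. Without index esophagus 2 the fold of Nmu was 3.44 and that of Tpm3-rs7 was 2.79. Their means in the other 5 index libraries were 8.340 and 19.06, so both reached a mean of 50 only through index esophagus 2. Anp32b, an acidic histone chaperone, had 3088 to 5156 normalized ECs in index libraries (median 3456) and 265.0 to 414.5 in short-code libraries (median 332.2), with a log2 fold change of 3.47 (SE 0.203, adjusted p = 2.04e-06). Its relatives Anp32e and Anp32a were higher at 1.46 and 1.19. Taf15, an RNA-binding protein, had 958.1 to 1355 and 89.69 to 202.8 (2.91, SE 0.202, adjusted p = 6.84e-06). Ncl, which encodes nucleolin and was named after its values were seen, had 8765 to 12670 and 1802 to 2355 (2.30, adjusted p = 6.9e-06), and Hmgn5, a nucleosome-binding protein, had 212.5 to 522.8 and 40.77 to 63.33 (2.96, adjusted p = 3.9e-05). Anp32b, Taf15, Ncl, and Hmgn5 did not overlap between kinds.

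The same classes were summed in the libraries of other ages. Mitochondrial rRNA took 0.1016 to 0.1960% of ECs in the 4 index libraries of P0 and adult and 9.302 to 28.39% in the 24 short-code libraries of other embryonic ages. The RNAs of RNA polymerase III took 0.002075 to 0.004747% in these index libraries and 1.242 to 7.897% in these short-code libraries. Replication-dependent histones took 0.009788 to 0.01393% and 0.09472 to 1.257%, and snoRNAs 0.000326 to 0.000603% and 0.01329 to 0.07145%. The snRNAs, at 0.0001096 to 0.0009147% and 0.0005901 to 0.02460%, and Malat1, at 0.09754 to 0.2040% and 0.1268 to 0.4782%, overlapped. Age and kind cannot be told apart over these 28 libraries, since E15.5 is the age that both kinds share.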

How the data were processed

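The authors checked reads with FastQC 011.5, aligned them to GRCm39 with Bowtie2 2.4.2 run through RSEM 1.3.3, and deposited RSEM's expected counts per gene in 2 tables. No source read here says whether reads were counted by strand, and RSEM divides reads among similar copies. Expected counts were rounded and tested in R 4.3.3 with edgeR 4.0.16 (quasi-likelihood test, Benjamini-Hochberg adjustment, tissue as a term), with median-ratio factors, for the 31192 of 53647 genes that reached 1 normalized count in 2 or more libraries. Class shares were compared by two-sided exact permutation of kind within tissue. Gene types, lengths, and sequences came from GENCODE vM39 on GRCm39, which lacked 1037 of the gene IDs. Genes were named for the highest mean or the largest change among called members of a list, for the largest rises and falls with a mean of at least 50 and no overlap, as regional regulators, or as genes that define a tissue list, and all others were named after their values were seen. The members and the 40 lists were chosen with earlier results of these data known. Alternatives were TMM and protein-coding factors, other filters, DESeq2 1.42.0, a replicate block, other denominators, and libraries left out. The test was checked on simulated data. Some items are not reported here.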

Additional observations from a re-analysis of the deposited data

Results flagged for a closer look

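Within a kind of library, 40 groups of 6 values were checked for a single library whose gap to its neighbour exceeded 0.625 of the group's range, a criterion that chance meets in about 5% of groups, and 13 met it. Library esophagus 2 of the index kind stood apart most often. It was highest for the share of replication-dependent histones (0.01890%, next 0.009701%), ribosomal protein genes (7.052%, next 4.466%), oxidative phosphorylation genes (1.810%, next 1.062%), and Rn18s-rs5 (2.323%, next 1.198%), and lowest for proliferation genes (0.03885%, next 0.1787%) and lncRNAs (0.7088%, next 2.237%). Index esophagus 1 was highest for olfactory receptors (0.02431%, next 0.01349%) and Malat1 (0.09793%, next 0.04409%). Among short-code libraries, trachea 2 was highest for olfactory receptors (0.1877%, next 0.07053%) and processed pseudogenes (1.578%, next 0.8609%), larynx 2 for Rn18s-rs5 (0.7917%, next 0.1378%), and esophagus 2 for snoRNAs and scaRNAs (0.05878%, next 0.04169%) and for total ECs (22062957, next 16452544).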

How the results depend on the processing

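The count of lower genes in the 5 classes without a tail, 93 with 12 libraries, was 86 to 97 when each of the 12 libraries was left out in turn, with 49 to 58 for replication-dependent histones, 18 in every case for snoRNAs, 8 to 10 for RNAs of RNA polymerase III, and 2 for mitochondrial rRNA. Counts over all genes moved more. Genes higher numbered 1254 (without index trachea 2) to 3928 (without index esophagus 2), with 1337 without index larynx 2, 1365 without index trachea 1, and 1362 without short-code larynx 2. Genes lower numbered 2473 (without index trachea 2) to 6179 (without index esophagus 2), with 2590 without index trachea 1. Within the larynx 18 (without index larynx 1) to 3463 genes (without index esophagus 2) were called, within the esophagus 51 (without short-code esophagus 2) to 8989 (without index esophagus 1), and within the trachea 14 (without index trachea 2) to 7152 (without index esophagus 2), where a lone library is assumed to vary like the others. Genes that differed between tissues numbered 0 to 5241, with 5241 without index esophagus 1. Replacement histones higher numbered 5 (without index larynx 2 or trachea 2) to 10.

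DESeq2 called 3202 genes higher, 2357 in the larynx, 2322 in the esophagus, 5016 in the trachea, and 114 that differed between tissues. Without a filter, 2487, 2677, and 5209 genes were called in the 3 tissues and 1824 differed, and with at least 10 ECs in 6 libraries 1964 were lower and 355 were called in the esophagus. Without 3 libraries that stood apart (short-code larynx 2 and trachea 2, index esophagus 2), the counts were 2000, 1288, and 7049, with 758 that differed. Without the 2 libraries against their labels, chosen after values were seen, they were 5652, 2104, and 6773, with 395 that differed, and 3946 genes were higher and 6845 lower. With TMM the median fold of 2 to 4 kb transcripts was 0.351.

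Same-numbered libraries deviated apart, at correlations of -0.164, -0.222, and -0.139 over 14681 genes. With 2 libraries of each kind in a tissue, these values cannot show whether equal numbers mark shared animals. A replicate block called 1205 genes higher, 2629 lower, and 5 replacement histones higher. The paired form of the share test, by sign flips of 6 pairs, gave a smallest adjusted p of 0.0511. It left these differences in percentage points (index minus short-code) past no threshold, namely -24.92 for mitochondrial rRNA, -5.44 for RNA polymerase III, -0.002467 for snRNAs, -0.0405 for snoRNAs, -0.08568 for replication-dependent and 0.1349 for replacement histones, 0.6818 for mitochondrial mRNA, 0.02529 for snoRNA hosts, 2.182 for ribosomal proteins, 0.09843 for proliferation, -0.04595 for olfactory receptors, 1.008 for Rn18s-rs5, -0.323 for Malat1, -0.281 for TEC, 0.5294 for processed pseudogenes, and 29.28 for protein-coding genes.

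As a share of protein-coding ECs the difference was -0.1081 for mitochondrial mRNA, 1.222 for ribosomal proteins, -1.088 for oxidative phosphorylation, 0.06923 for proliferation, -1.471 for lncRNAs, and 0.1247 for processed pseudogenes. By the same exact permutation test, the calls of ribosomal proteins (adjusted p = 0.0675), proliferation (adjusted p = 0.0944), and processed pseudogenes (adjusted p = 0.689) were lost there. Those of oxidative phosphorylation (adjusted p = 0.0262) and lncRNAs (adjusted p = 0.0175) were gained. On the log2 scale the difference was 1.07 for proliferation, whose call was lost (exact permutation test, adjusted p = 0.0625). With a library left out, differences ran from 0.5836 to 0.7974 for mitochondrial mRNA, -0.05549 to -0.02046 for olfactory receptors, 0.08419 to 0.1258 for proliferation, -0.3358 to -0.1795 for TEC, and -0.4859 to -0.2275 for oxidative phosphorylation. The calls were lost in 9 of 12 cases for mitochondrial mRNA, 7 for olfactory receptors, 5 for proliferation, and 1 for TEC, at adjusted p of 0.0521 to 0.137 by the exact permutation test. That of oxidative phosphorylation was gained without index esophagus 2. Regional regulators higher numbered 14 with TMM or DESeq2 and 3 with the block. The cause of these changes was not tested. The lower protein-coding depth of short-code libraries limits their precision for rare mRNAs.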
